A study of Mus musculus with 33 samples.

Results

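The growth genes described here are 10 imprinted genes of the mouse, namely Igf2, H19, Dlk1, Meg3, Rian, Mirg, Peg3, Mest, Cdkn1c and Plagl1. They were taken by symbol from a table of 21671 genes, and all 10 had a row. An imprinted gene is transcribed mainly from the copy inherited from 1 parent, and the copy that is used is set by DNA methylation laid down in the egg or sperm. Many paternally expressed members, such as Igf2, a fetal growth factor, and Dlk1, a transmembrane protein of the Delta family, favour fetal growth, whereas maternally expressed members such as H19, a long non-coding RNA, and Cdkn1c, an inhibitor of cyclin-dependent kinases, restrain it. In the mouse liver several of them are abundant before birth and are silenced in the weeks after it. The libraries measure RNA of both parental copies together, so nothing here shows from which copy a transcript came.

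Total RNA was sequenced from 33 livers and liver nodules of C57BL/6 mice, in a study of the cooperation between MYC and β-catenin in liver tumours. In the short-term arm, mice aged 6 to 8 weeks received AAV8-TBG-CRE intravenously, a virus that makes Cre recombinase under the hepatocyte promoter TBG, and livers were taken after 4 days. These mice were wild type, or carried b-cat Ex3 (a β-catenin gene from which Cre deletes exon 3, called Ex3 below), R26-lslMYC (a MYC transgene at Rosa26 behind a stop that Cre removes, called MYC) or both (MYC+Ex3), with 5 livers in each group. All 20 of these livers, the wild-type ones included, had received the virus. The tumour arm held nodules of mice with Alb-CreERT2, a Cre driven from the albumin promoter that 4-hydroxytamoxifen (4-OHT) activates, together with R26-lslMYC (3 MYC tumours) or with R26-lslMYC and b-catEx3 (3 MYC+Ex3 tumours). Its controls were 7 livers of wild-type mice taken 4 days after 4-OHT given into the peritoneum, and no Cre allele is named for them. The age of the tumour mice and of the 4-OHT mice is not given in the sources used here, so age and tumour cannot be told apart in that arm. The labels do not say whether nodules came from separate mice, so p-values measure only the spread between these samples.

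Levels are in RPKM, the reads of a gene scaled by its length and by a library total. The short-term libraries had 3.75 to 7.31 M reads in genes and the tumour-arm libraries 6.65 to 9.82 M. The RPKM of all genes summed to between 320814 and 367521 in the former and to between 68987 and 97790 in the latter, so the arms are on different scales and levels were compared only within an arm. Axin2, a target of β-catenin that checks the Ex3 labels, lay at 10.6 to 24.9 RPKM in Ex3 livers and at 2.73 to 4.30 in wild-type livers. It lay at 7.49 to 24.3 in MYC+Ex3 livers and at 0.513 to 6.99 in MYC livers, groups that came close at their edges. In MYC+Ex3 tumours it lay at 7.63 to 11.3 and in MYC tumours at 0.0946 to 0.660. The Myc row spanned 1.55 to 2.52 RPKM in the 6 tumours and 1.15 to 2.19 in the 4-OHT livers, so it did not separate these groups. By Xist and Ddx3y, 12 of the 20 short-term livers were male (between 2 and 4 in each group), as were 4 of the 4-OHT livers and all but 1 of the tumours. MYC tumour 1 stood apart from the other tumours, and results that move with it are given with and without it. Keratin genes of skin (Krt5, Krt14 and Krt17) summed to 3.95 RPKM or more in 10 of the 20 short-term livers and to at most 0.398 in the other 10. The labels do not name this split, which held 3 wild-type, 3 Ex3, 1 MYC and 3 MYC+Ex3 livers on the keratin-bearing side.

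Igf2 and H19 lie side by side and share enhancers, and in the textbook account the paternal copy makes Igf2 and the maternal copy makes H19. In the reference build GRCm38, Igf2 covers 142650766 to 142666816 of chromosome 7 and H19 covers 142575529 to 142578143, both on the minus strand. Each hosts a miRNA precursor, Mir483 in an intron of Igf2 and Mir675 in the first exon of H19. Their mature sequences (RefSeq, GRCm38.p6) are shown because the Mir483 row of the table can be set beside Igf2, and capitals mark the seed, bases 2 to 8:
mmu-miR-483-5p: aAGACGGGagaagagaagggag
mmu-miR-483-3p: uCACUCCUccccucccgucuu
mmu-miR-675-5p: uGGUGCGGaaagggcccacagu
mmu-miR-675-3p: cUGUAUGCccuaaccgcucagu
These 4 mature sequences have 4 different seeds. RefSeq gives Igf2 4 start sites, and the window around the one with the most CG dinucleotides, the letters that carry DNA methylation, holds 24 of them (in capitals) where the median promoter window of the genome holds 7.
Igf2 promoter 3, GRCm38.p6, chr7:142658755-142659054, minus strand: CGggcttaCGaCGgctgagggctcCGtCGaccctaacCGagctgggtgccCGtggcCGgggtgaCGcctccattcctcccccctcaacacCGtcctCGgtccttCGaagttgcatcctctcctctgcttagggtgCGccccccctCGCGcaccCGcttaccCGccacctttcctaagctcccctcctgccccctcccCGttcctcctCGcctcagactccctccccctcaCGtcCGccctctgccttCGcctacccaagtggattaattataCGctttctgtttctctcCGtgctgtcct

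In the tumours Igf2 RNA was 575-fold (MYC) and 620-fold (MYC+Ex3) the level of 4-OHT livers as a ratio of mean RPKM, and H19 was 109-fold and 107-fold. The H19 ratios rest on 4-OHT liver 1, and without it they were 204-fold and 201-fold. Igf2 measured 44.6, 35.6 and 39.5 RPKM in MYC tumours 1, 2 and 3 and 38.3, 45.3 and 45.3 RPKM in MYC+Ex3 tumours 1, 2 and 3. In the 7 4-OHT livers the lowest, median and highest Igf2 values were 0.0246, 0.0712 and 0.121 RPKM. All 6 tumours thus lay far above all 7 livers, in which Igf2 rested on 4 to 18 reads against 4512 to 6174 reads in the tumours. Changes are differences of log2(RPKM + 1), in which low levels are damped by the added 1. By this measure Igf2 rose by 5.25 (SE 0.0960) in MYC tumours, with a limma adjusted p of 6.83e-14. The rise in MYC+Ex3 tumours was 5.36, with a limma adjusted p of 5.14e-14.

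H19 measured 66.1, 41.5 and 45.3 RPKM in the MYC tumours and 44.8, 53.4 and 52.9 RPKM in the MYC+Ex3 tumours, against 0.0269, 0.272 and 1.78 RPKM (lowest, median and highest) in 4-OHT livers. The H19 rise was 5.19 (SE 0.250) in MYC tumours and 5.20 in MYC+Ex3 tumours on the log2(RPKM + 1) scale (limma adjusted p 1.1e-08 and 3.85e-09). The 4-OHT liver with the highest H19, liver 1, also had the highest sum of skeletal muscle markers, 45.5 RPKM against 0.362 to 1.36 in the other 6, and H19 is abundant in muscle. The part of that tissue in its value was not tested, and without this liver the H19 rises were 5.36 and 5.37.

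**Figure D1:**
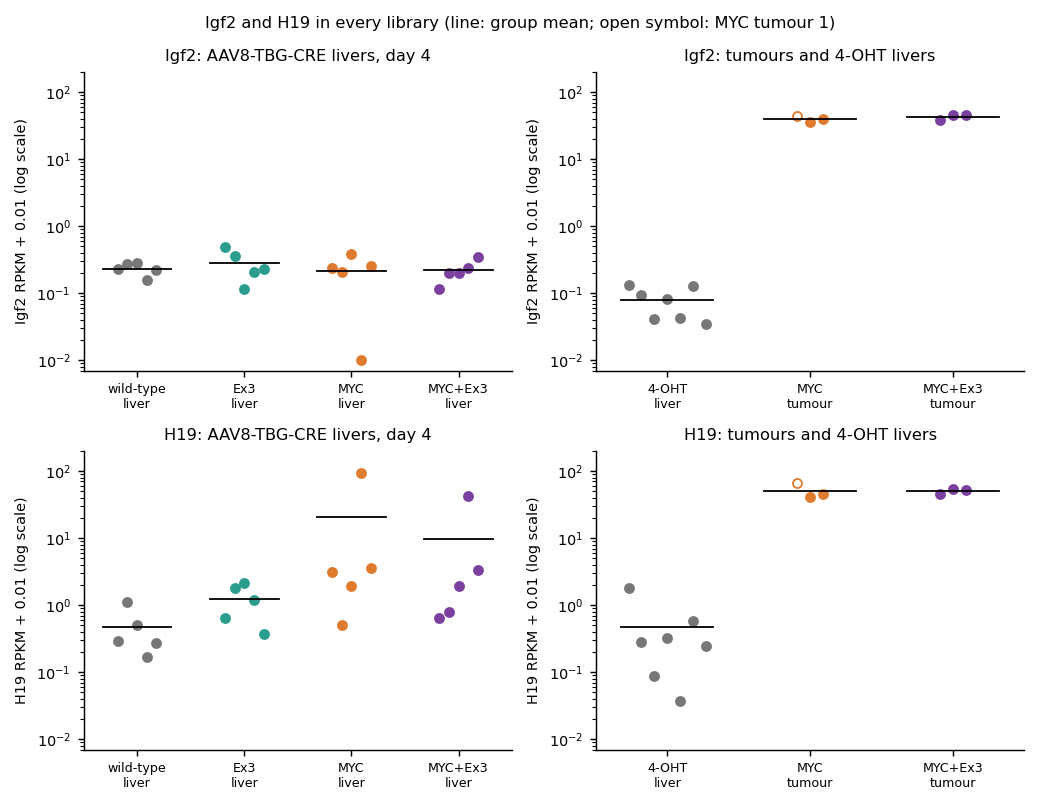
Igf2 and H19 (named above each panel) in each library, as RPKM + 0.01 on a log axis, for the short-term livers and for the tumour arm; points are libraries, lines are group means and the open symbol is MYC tumour 1. All 6 tumours sit at 35.6 RPKM or more for Igf2 and at 41.5 or more for H19, while short-term livers stay low except for H19 in MYC liver 4 (95.1) and MYC+Ex3 liver 4 (41.8).

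Igf2 and H19 did not separate the tumour genotypes. The difference of MYC+Ex3 from MYC tumours was 0.11 (SE 0.114) for Igf2 and 0.01 for H19 on the log2(RPKM + 1) scale, with limma adjusted p of 0.7 and 0.995. Among tumours the H19 reads ran only from 4132 to 4371, a ratio of 1.06, while the reads in genes ran from 6.67 to 9.82 M, a ratio of 1.47. Igf2 reads ran from 4512 to 6174, a ratio of 1.37. Within the groups of the arm the 50 most abundant genes gained a median of 0.175 log2 reads per log2 of depth, against 0.904 for genes ranked 2001 to 3000, so counts of the most abundant genes scarcely followed depth. Differences in H19 between tumours can therefore be understated, and its highest RPKM, in MYC tumour 1, stands in the shallowest tumour library.

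**Figure D2:**
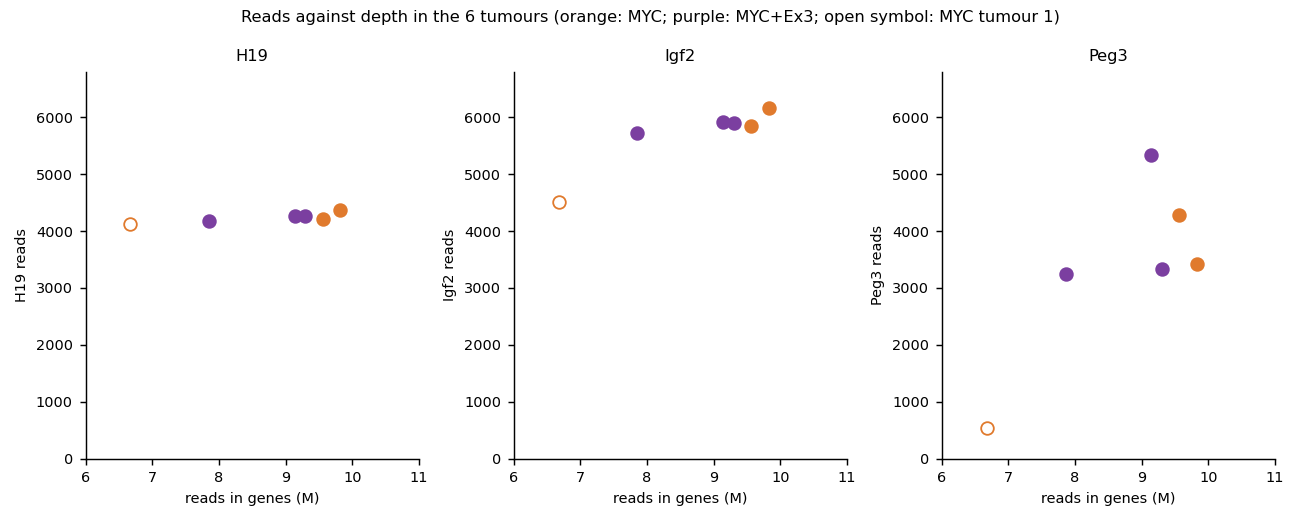
Reads of H19, Igf2 and Peg3 (vertical axis, reads) against the reads in genes of the library (horizontal axis, M) in the 6 tumours; each point is a tumour, orange for MYC, purple for MYC+Ex3 and open for MYC tumour 1. H19 stays between 4132 and 4371 reads at every depth, whereas Peg3 spans 534 to 5341 reads.

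Reads of the Mir483 row were seen in all 6 tumours, with 3, 27 and 17 reads in the MYC tumours and 18, 17 and 13 in the MYC+Ex3 tumours, and in 0 of 7 4-OHT livers. Total RNA libraries of this kind do not select mature miRNAs, so these reads describe RNA across the precursor and not the sequences shown above. Mir675 had no row. Igf2os, a non-coding RNA transcribed antisense to Igf2, measured 0.894, 3.89 and 3.85 RPKM in MYC tumours, 3.70, 5.20 and 5.90 in MYC+Ex3 tumours and 0 to 0.0172 in 4-OHT livers. It rose by 1.82 and 2.54 on the log2(RPKM + 1) scale (limma adjusted p 3.7e-05 and 9.93e-07), and by 2.27 in MYC tumours without MYC tumour 1. The kit keeps strand, but the strand setting of the counting is not given in the sources used here, so reads of Igf2 and Igf2os cannot be told apart with certainty. Mrpl23, a mitochondrial ribosomal protein gene beside H19 that is not imprinted, rose by only 0.55 and 0.63 (limma adjusted p 0.00395 and 0.00112). Of 8 such neighbours 4 were tested, of which 1 rose in MYC tumours and 2 in MYC+Ex3 tumours, where 36.2% and 42.3% of all genes tested rose.

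Dlk1, Meg3, Rian and Mirg form another imprinted domain, on chromosome 12 from 109452823 (start of Dlk1) to 109749460 (end of Mirg) in GRCm38, all on the plus strand. Dlk1 is made from the paternal copy, and Meg3, Rian (a host of small nucleolar RNAs) and Mirg (a host of miRNAs) are non-coding RNAs of the maternal copy. In 5 of the 6 tumours all 4 were above the 4-OHT livers, and MYC tumour 1 was the exception. Dlk1 measured 0, 1.85 and 1.38 RPKM in MYC tumours 1, 2 and 3 (0, 346 and 245 reads) and 1.58, 2.09 and 2.06 RPKM in the MYC+Ex3 tumours, while the 7 4-OHT livers held 1 read between them. Rian measured 0.260, 7.07 and 6.72 RPKM in MYC tumours and 4.68, 5.93 and 7.38 in MYC+Ex3 tumours, against 0.203 to 0.408 in 4-OHT livers. MYC tumour 1 thus sat inside the range of the 4-OHT livers for Rian and had no Dlk1 read, although its Igf2 RPKM lay within the range of the other tumours. Its H19 was the highest of all tumours in RPKM but the lowest in reads (4132).

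Meg3 measured 0.0558, 2.65 and 2.17 RPKM in MYC tumours and 1.30, 1.60 and 2.59 in MYC+Ex3 tumours, against 0.0960 to 0.170 in 4-OHT livers. For Mirg the values were 0.0283, 2.56 and 1.76 RPKM and 1.23, 2.29 and 2.56 RPKM, against 0.0445 to 0.174. MYC tumour 1 was the lowest library of the arm for both, with 18 reads of Meg3 and 3 reads of Mirg. In MYC tumours the log2(RPKM + 1) changes were 0.92 for Dlk1, 1.01 for Meg3, 1.72 for Rian and 0.98 for Mirg, with limma adjusted p between 0.00346 and 0.00974. Without MYC tumour 1 they were 1.38, 1.58, 2.60 and 1.52. The calls of Meg3 and Mirg in MYC tumours were lost without MYC tumour 2 (0.68 and 0.62, limma adjusted p 0.0619 and 0.0696) and without MYC tumour 3 (0.78 and 0.80, limma adjusted p 0.0633 and 0.0602), and with voom on recovered reads (adjusted p 0.0668 and 0.0783). In MYC+Ex3 tumours they were 1.54, 1.28, 2.41 and 1.44, with limma adjusted p between 6.32e-05 and 0.00135.

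The hosts of this domain carry many miRNA precursors, 1 within Meg3, 3 within Rian and 14 within Mirg on the same strand in RefSeq, and all 18 have a row in the table. Their summed reads were 0, 57 and 24 in MYC tumours 1, 2 and 3 and 19, 36 and 38 in MYC+Ex3 tumours, against 0 to 6 in 4-OHT livers. Precursor reads thus followed their hosts, with none in MYC tumour 1. These precursors give 34 mature sequences with 33 different seeds, and only mmu-miR-453 and mmu-miR-496a-5p share one, GGUUGCC. To show how little the seeds of a single transcript unit have in common, 1 mature miRNA of Meg3, 1 of Rian and 2 of Mirg follow, with the seed in capitals:
mmu-miR-770-3p, in Meg3: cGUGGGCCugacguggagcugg
mmu-miR-370-3p, in Rian: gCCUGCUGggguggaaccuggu
mmu-miR-409-3p, in Mirg: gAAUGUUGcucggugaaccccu
mmu-miR-410-3p, in Mirg: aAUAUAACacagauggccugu

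Because these RNAs were high and low together, the start-site windows of Meg3 and Rian are shown with their CG dinucleotides in capitals. Of the 2 Meg3 windows the one shown holds 13 and the other, from 109545148 to 109545447, holds 1, and the Rian window holds 0, against a genome median of 7 (quartiles 3 and 20).
Meg3 promoter 1, GRCm38.p6, chr12:109540746-109541045, plus strand: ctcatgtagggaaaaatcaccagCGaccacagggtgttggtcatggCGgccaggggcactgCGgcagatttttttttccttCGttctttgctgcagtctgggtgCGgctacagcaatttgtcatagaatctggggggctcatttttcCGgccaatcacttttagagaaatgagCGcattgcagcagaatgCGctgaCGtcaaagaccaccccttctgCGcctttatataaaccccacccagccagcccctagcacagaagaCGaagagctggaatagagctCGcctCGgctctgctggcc
Rian promoter, GRCm38.p6, chr12:109603695-109603994, plus strand: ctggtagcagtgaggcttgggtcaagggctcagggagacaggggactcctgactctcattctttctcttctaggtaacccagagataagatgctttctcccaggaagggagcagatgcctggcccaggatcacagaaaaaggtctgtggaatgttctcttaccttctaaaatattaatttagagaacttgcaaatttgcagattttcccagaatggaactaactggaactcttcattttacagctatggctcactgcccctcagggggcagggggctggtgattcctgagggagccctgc
RefSeq windows were found for 8 of the 10 genes, 14 windows in all, and not for H19 or Cdkn1c. The E-box CACGTG, a motif bound by MYC and by other factors, was found in 1 of the 14, that of Plagl1, where 7.15% of all promoter windows hold it. The letters CTTTGAT, a core of the TCF/LEF motif, read on both strands, were in 0 of 14 where 3.73% of all windows hold them. A match or its absence describes these letters in these windows only.

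Peg3 encodes a zinc finger protein made from the paternal copy, and lies at 6703892 to 6730431 of chromosome 7 in GRCm38. It measured 3.34, 16.5 and 13.8 RPKM in MYC tumours 1, 2 and 3 and 13.7, 16.2 and 25.9 RPKM in MYC+Ex3 tumours, against 1.18 to 1.76 in 4-OHT livers. All 6 tumours were above all 7 livers, with MYC tumour 1 the nearest to them. The log2(RPKM + 1) change was 2.10 (SE 0.320) in MYC tumours and 2.96 in MYC+Ex3 tumours, with limma adjusted p of 0.000137 and 3.8e-06. The Peg3 change in MYC tumours was 2.73 without MYC tumour 1.

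Cdkn1c lies in the imprinted domain next to that of Igf2, at 143458339 to 143461050 of chromosome 7. It measured 0.151, 13 and 11.2 RPKM in MYC tumours and 9.76, 9.81 and 19.2 in MYC+Ex3 tumours, against 0.508 to 1.50 in 4-OHT livers. MYC tumour 1, with 7 reads, was below every 4-OHT liver, and the other 5 tumours were above all of them. The change in MYC tumours was 1.74 (SE 0.559) with a limma adjusted p of 0.019, and 2.90 without MYC tumour 1. That call was lost without MYC tumour 2 (1.10, limma adjusted p 0.13), without MYC tumour 3 (1.20, limma adjusted p 0.131) and with voom on recovered reads (adjusted p 0.129). In MYC+Ex3 tumours Cdkn1c rose by 2.93, with a limma adjusted p of 0.000444.

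Mest, which encodes a hydrolase-like protein and is made from the paternal copy, did not pass the test in either kind of tumour. It measured 2.67, 3.92 and 5.92 RPKM in MYC tumours, 3.74, 2.13 and 2.84 in MYC+Ex3 tumours and 1.77 to 3.73 in 4-OHT livers, so the groups overlapped. Its differences from 4-OHT livers were 0.42 and 0.04 (limma adjusted p 0.11 and 0.868), and without MYC tumour 1 the change in MYC tumours was 0.64 with a limma adjusted p of 0.0236. Plagl1, a zinc finger transcription factor of the paternal copy, stayed at or below 0.505 RPKM in all 13 libraries of the arm and missed the minimum for the limma test. It measured 0.191, 0.505 and 0.128 RPKM in MYC tumours and 0.223, 0.102 and 0.120 in MYC+Ex3 tumours, against 0.214 to 0.454 in 4-OHT livers. With no filter on low values the Plagl1 difference in MYC+Ex3 tumours was -0.22 (limma adjusted p 0.0515). With voom on recovered reads it was -1.37 and passed (adjusted p 0.0280), and the authors' deposited table gives -1.35 with an adjusted p of 0.000286. In MYC tumours Plagl1 did not pass in either (voom adjusted p 0.277, and 0.38 in the authors' deposited table).

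**Figure D3:**
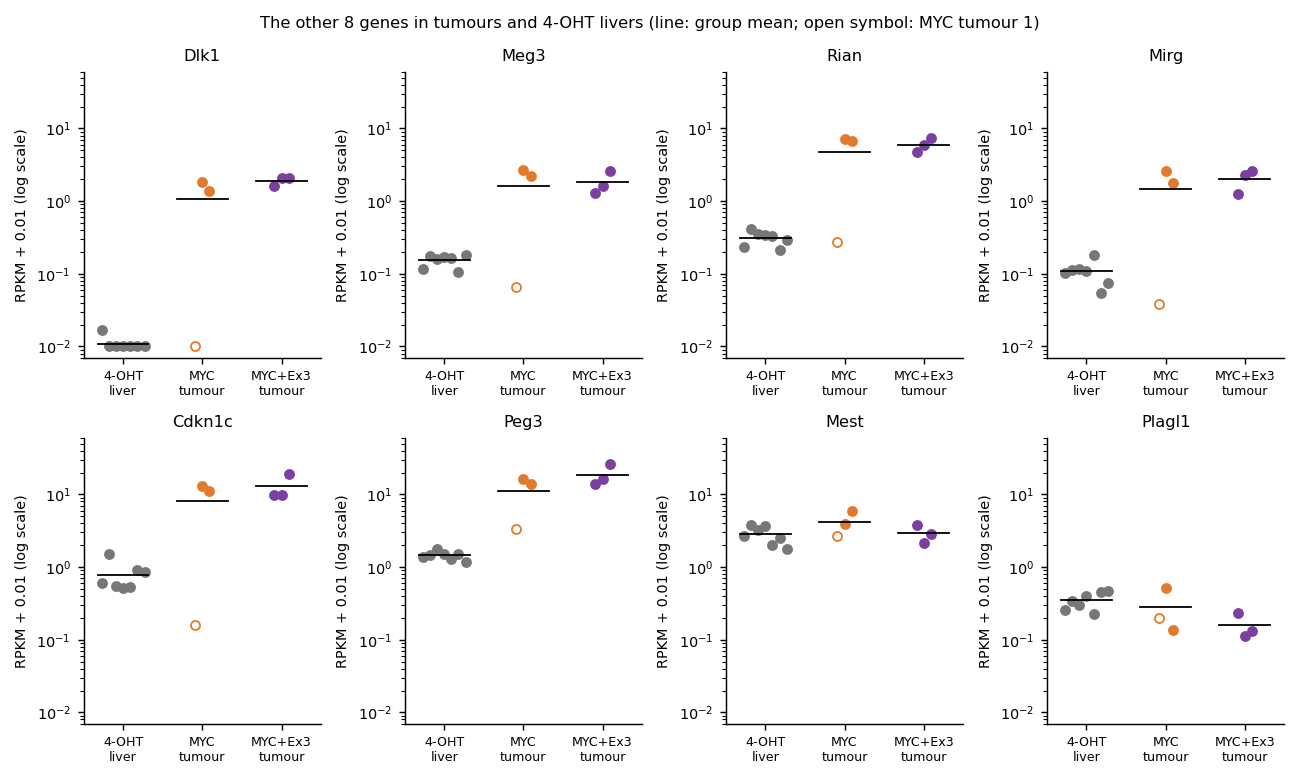
Levels of Dlk1, Meg3, Rian, Mirg, Peg3, Mest, Cdkn1c and Plagl1 in each library of the tumour arm, as RPKM + 0.01 on a log axis; points are libraries, lines are group means and the open symbol is MYC tumour 1. MYC tumour 1 lies with the 4-OHT livers or below them for Dlk1, Meg3, Rian, Mirg and Cdkn1c (0.151 RPKM), and the other 5 tumours lie above them.

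Of the 9 genes tested in the tumour arm, 8 were called higher and 0 lower in MYC tumours, where 49.8% of all genes tested were called (36.2% higher and 13.7% lower). The same counts held in MYC+Ex3 tumours, where 60.6% were called (42.3% higher and 18.4% lower). Neither these counts nor the medians support anything by themselves: Igf2, Dlk1, Meg3, Rian and Mirg reached the minimum of 1 RPKM in no 4-OHT liver and H19 and Cdkn1c in 1, so they were tested through the group in which they are high. Both comparisons share the 7 4-OHT livers. The median log2(RPKM + 1) change of the 9 was 1.72 and 2.41, beside 0.19 and 0.23 for all genes tested. Without MYC tumour 1 the count in MYC tumours was 9 of 9 (52% of all genes called) and the median 2.60. In the authors' deposited table Igf2 had a log2 fold change of 8.50 in MYC tumours and 8.90 in MYC+Ex3 tumours, values from counts that are larger than those on the log2(RPKM + 1) scale. For H19 that table gives 4.65 in MYC tumours, with no adjusted p, and 5.34 in MYC+Ex3 tumours, with an adjusted p of 7.42e-12. The deposited table gives Dlk1 1.66 in MYC tumours, of which MYC tumour 1 held 0 reads, and 8.51 in MYC+Ex3 tumours. For MYC+Ex3 against MYC tumours it gives Dlk1 only 0.162, with an adjusted p of 0.924.

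Between the tumour genotypes 0 of 9 passed limma, where 4.13% of all genes did (2.02% higher and 2.1% lower). At an unadjusted p under 0.05 there were 2, and voom on recovered reads called 0 of 10. The largest differences of MYC+Ex3 from MYC tumours were 1.19 for Cdkn1c, 0.86 for Peg3, 0.69 for Rian and 0.62 for Dlk1 on the log2(RPKM + 1) scale, with limma adjusted p between 0.248 and 0.509. Without MYC tumour 1 these became 0.02 for Cdkn1c, 0.23 for Peg3, -0.19 for Rian and 0.16 for Dlk1. The median of the 9 was 0.46 with all tumours and 0.02 without MYC tumour 1.

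**Figure D4:**
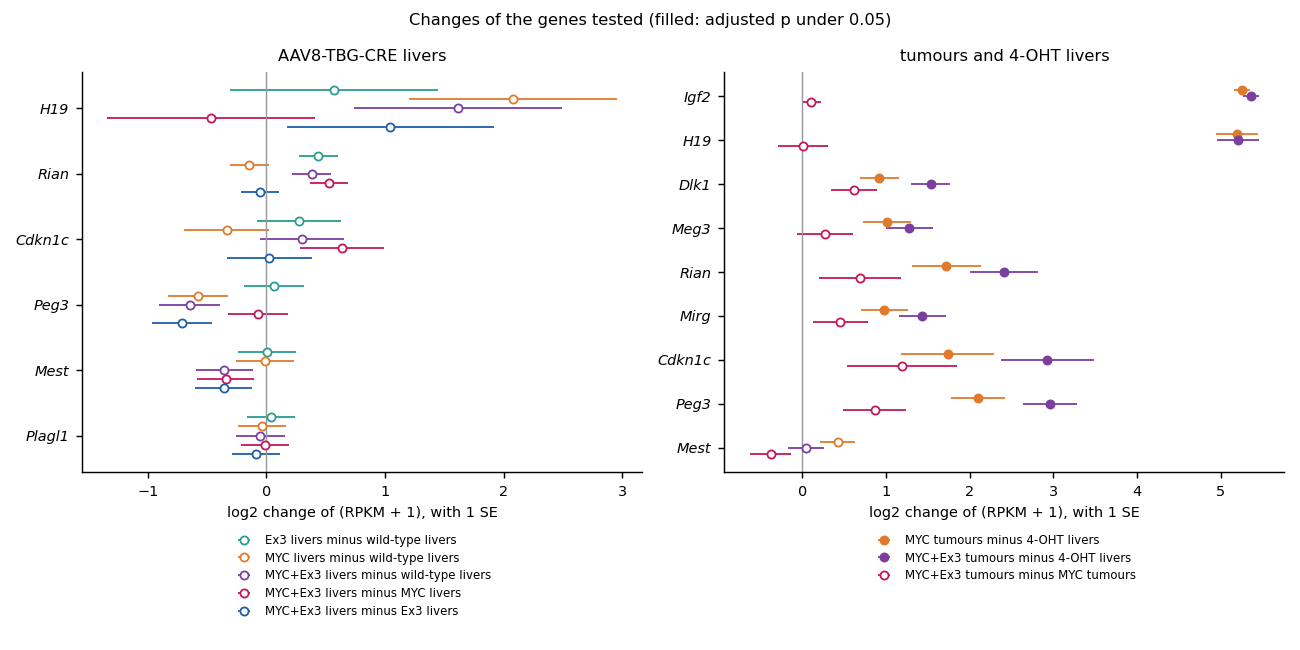
Log2(RPKM + 1) change of each tested gene in each comparison, with bars of 1 SE; filled symbols passed limma at an adjusted p under 0.05. Igf2 (5.25 and 5.36) and H19 (5.19 and 5.20) lie farthest from 0, in the tumour comparisons, and no symbol is filled in the short-term comparisons.

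Other cell types and tissues moved with the tumours, in which many genes changed. Among all genes tested 36.2% rose and 13.7% fell in MYC tumours, and 42.3% rose and 18.4% fell in MYC+Ex3 tumours. Of 8 endothelial markers 6 fell and 0 rose in each kind of tumour, and their summed level was 50.4 to 83.1 RPKM in 4-OHT livers, 26.7 to 44.9 in the MYC and 28.3 to 33.0 in the MYC+Ex3 tumours. Of 7 macrophage markers 6 fell in each, from 82.8 to 114 RPKM down to 19.2 to 84.2 and 30.4 to 36.7. Without MYC tumour 1, 5 of the macrophage markers fell and 1 rose in MYC tumours. Of 9 hepatocyte markers 1 fell in MYC tumours (6 without MYC tumour 1) and 4 fell in MYC+Ex3 tumours, and 0 rose. Their sums, 267 to 369 RPKM in 4-OHT livers and 212 to 366 in the tumours, include 2 of the 50 most abundant genes, whose counts scarcely followed depth. MYC tumour 1 had the lowest sums of the MYC tumours for stellate cell and fibroblast markers (29.6 against 54.1 and 58.0) and for macrophage markers (19.2 against 84.2 and 42.3). Stellate cell and fibroblast markers were as low in the MYC+Ex3 tumours (27.4 to 36.1), and summed to 42.1 to 55.4 in 4-OHT livers. Of these 10 markers 4 rose and 3 fell in MYC tumours, and 2 rose and 5 fell in MYC+Ex3 tumours. In such tissue, fewer cells of a type and less RNA per cell cannot be told apart, and the part of these cells in the levels of the imprinted genes was not tested. Erythroid markers, of which 5 were tested, summed to 18.6 to 38.1 RPKM in 4-OHT livers, 15.6 to 54.7 in MYC tumours and 57.8 to 67.5 in MYC+Ex3 tumours, where 4 rose. The 5 markers of steroid-making cells, in which Dlk1 and H19 are also made, summed to 0.696 to 1.52 RPKM in 4-OHT livers, 0.632, 6.05 and 4.90 in MYC tumours 1, 2 and 3 and 9.90 to 11.2 in MYC+Ex3 tumours. Hsd3b1 was the 1 marker of these 5 that could be tested and it rose by 1.51 (2.30 without MYC tumour 1) and 3.23, while Cyp11b1 was at 0 in all 13 libraries. Nr5a1 was at 0 in all 4-OHT livers and all MYC tumours, but not in every MYC+Ex3 tumour. The part of such cells in the levels of Dlk1 and H19 was not tested.

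Of 64 other imprinted genes in the table, 36 were tested in this arm. In MYC tumours 16 rose and 5 fell (16 and 3 without MYC tumour 1), in MYC+Ex3 tumours 17 rose and 6 fell, and the median changes were 0.39 and 0.40 beside 0.19 and 0.23 for all genes. The shares called, 58.3% and 63.9% of these genes, were near those of all genes tested (49.8% and 60.6%). Peg10, a retrotransposon-derived gene of the placenta, measured 0.253, 16.9 and 20.6 RPKM in MYC tumours, 22.1, 19.1 and 21.1 in MYC+Ex3 tumours and 0.306 to 0.529 in 4-OHT livers. Grb10, an adaptor that restrains insulin and IGF signalling, measured 2.22, 21.6 and 20.4 RPKM and 32.7, 34.7 and 39.2 RPKM, against 1.13 to 1.85. Phlda2, a growth restrainer beside Cdkn1c, measured 0.625, 7.69 and 11.8 RPKM and 4.63, 5.50 and 7.56 RPKM, against 0.0906 to 0.390. The log2(RPKM + 1) rises in MYC and MYC+Ex3 tumours were 2.47 and 3.94 for Peg10, 2.22 and 3.87 for Grb10, and 2.23 and 2.50 for Phlda2 (limma adjusted p at most 0.00379). Without MYC tumour 1 the rises in MYC tumours were 3.80, 3.14 and 3.13. MYC tumour 1 was again the lowest tumour for each of the 3, as it was for the chromosome 12 RNAs, Peg3 and Cdkn1c. Genes that fell included Dcn (changes of -0.99 and -0.92), a proteoglycan of fibroblasts, and Slc22a18 (-0.56 and -0.93), a transporter.

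Receptors and carriers of IGF2 are members of the same growth axis. Igf2r, the receptor that takes IGF2 to lysosomes and is itself imprinted, measured 9.39, 8.64 and 6.69 RPKM in MYC tumours, 16.9, 15.4 and 15.8 in MYC+Ex3 tumours and 4.76 to 6.34 in 4-OHT livers. It rose by 0.46 and 1.35 on the log2(RPKM + 1) scale and was 0.89 higher in MYC+Ex3 than in MYC tumours (limma adjusted p 0.00452, 5.03e-07 and 0.00155). Igf1, the growth factor that the adult liver makes, fell from 20.4 to 27.4 RPKM in 4-OHT livers to 7.30, 9.53 and 9.16 in MYC tumours and to 2.10, 2.24 and 2.38 in MYC+Ex3 tumours. The Igf1 changes were -1.39 and -2.96, and MYC+Ex3 tumours were lower than MYC tumours by -1.57 on that scale (limma adjusted p 7.73e-06). Igf1 thus separated the tumour genotypes, while Igf2 did not separate them beyond its error. Differences in Igf2 between tumours can be understated, as given above. Igfals, which carries IGFs in blood, fell by 1.77 (2.12 without MYC tumour 1) and 3.17 on the log2(RPKM + 1) scale. Igf2bp3, an RNA-binding protein named for Igf2 mRNA, measured 7.83 to 10.1 RPKM in the 6 tumours and 0.593 to 1.14 in 4-OHT livers, with MYC tumour 1 at the top. Of 13 genes of the axis tested, 3 rose and 5 fell in MYC tumours (3 and 7 without MYC tumour 1), and 4 rose and 4 fell in MYC+Ex3 tumours. The shares of all genes tested were 36.2% higher and 13.7% lower in MYC tumours, and 42.3% higher and 18.4% lower in MYC+Ex3 tumours.

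**Figure D5:**
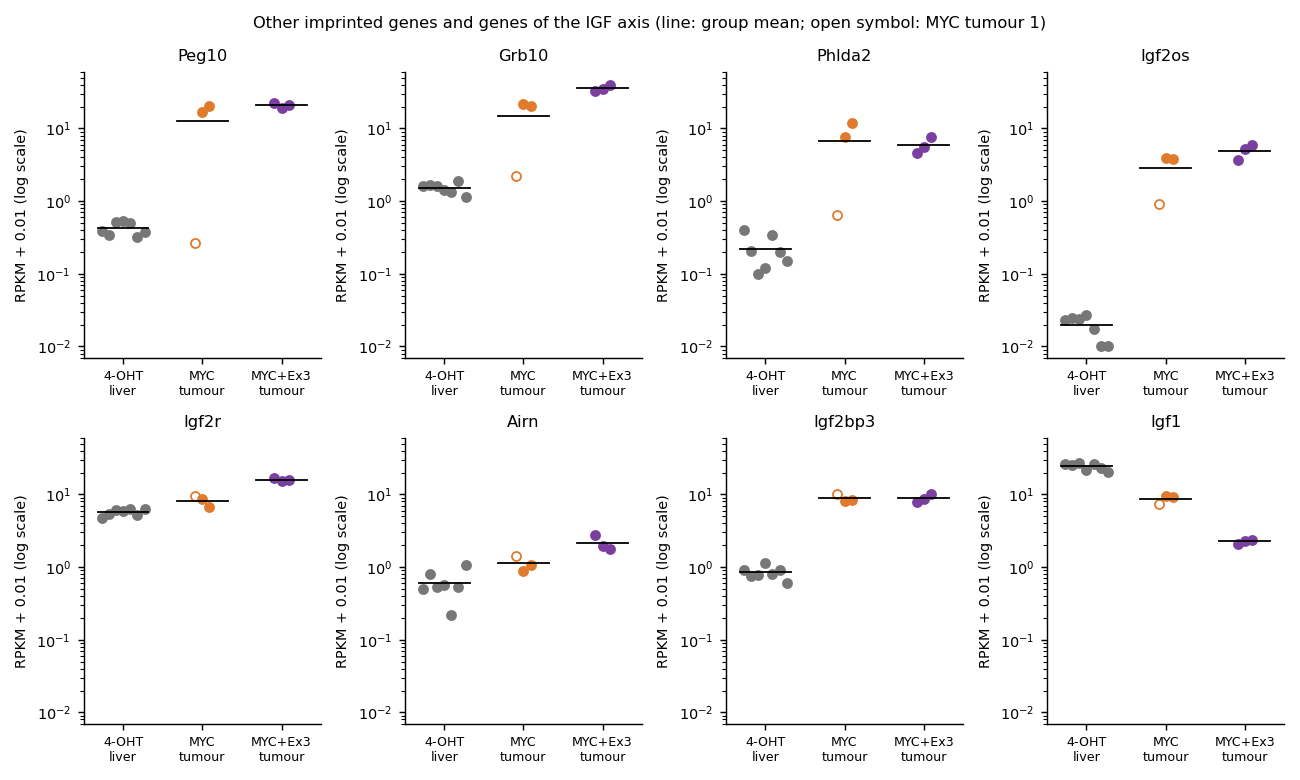
Levels of Peg10, Grb10, Phlda2, Igf2os, Igf2r, Airn, Igf2bp3 and Igf1 in each library of the tumour arm, as RPKM + 0.01 on a log axis; points are libraries, lines are group means and the open symbol is MYC tumour 1. Igf1 steps down from 4-OHT livers (20.4 to 27.4) to MYC+Ex3 tumours (2.10 to 2.38), Igf2r steps up, and MYC tumour 1 is low for Peg10 (0.253) but not for Igf2bp3.

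Genes that keep imprints or silence fetal genes after birth were read from a list of which 12 were tested. In each kind of tumour 7 rose and 2 fell. Of all genes tested, 36.2% rose and 13.7% fell in MYC tumours, and 42.3% rose and 18.4% fell in MYC+Ex3 tumours. Uhrf1, which guides maintenance methylation, rose by 1.76 and 2.38, and Dnmt3b, a methyltransferase, by 1.26 in MYC tumours. The Uhrf1 rise in MYC tumours was 2.24 without MYC tumour 1. Zhx2, a repressor of Afp and H19 in the adult mouse liver, fell by 0.88 and 1.35 on the log2(RPKM + 1) scale, and Zbtb20, also a repressor of Afp, fell by 0.87 and 1.07. In MYC tumour 1, Zhx2 (3.15 RPKM) and Zbtb20 (7.11 RPKM) lay within the range of the 4-OHT livers (2.94 to 5.02 and 5.54 to 9.19). That tumour had the highest H19 of all tumours in RPKM but the lowest in reads (4132). Without MYC tumour 1 the changes in MYC tumours were -1.21 for Zhx2 and -1.29 for Zbtb20. Afp, the fetal albumin, measured 1.97, 29.6 and 33.5 RPKM in MYC tumours 1, 2 and 3. Afp was thus lowest in MYC tumour 1 among the MYC tumours. The part of Zhx2 and Zbtb20 in the levels of H19 and Afp was not tested. Gpc3 was 2.28 higher in MYC+Ex3 than in MYC tumours (limma adjusted p 0.014), and 1.52 higher without MYC tumour 1 (limma adjusted p 0.00498).

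The genes most like each imprinted gene were found by Pearson r of log2(RPKM + 1) over the 13 libraries of the arm, which share the contrast of tumours with livers, and are given as a description. For Igf2 they were Phgdh (0.999), Igf2bp3 (0.997) and Rbm38 (0.993), and for H19 they were Igf2 (0.993), Igf2bp3 (0.992) and Phgdh (0.991). For Meg3 they were Rian (0.990), Mirg (0.987) and Sall4 (0.986), and for Peg3 they were Igf2os (0.995), Ngfrap1 (0.992) and Bex4 (0.989). The closest to Dlk1 was Shbg (1.000), to Cdkn1c St3gal2 (0.987), to Rian Ggt1 (0.992) and to Mirg Tceal5 (0.990). Mest reached only 0.869, with Gja1.

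In the short-term arm, 4 days after Cre, Igf2 stayed near 0 in every group. It measured 0.219, 0.265, 0.272, 0.146 and 0.216 RPKM in wild-type livers 1 to 5 and 0.225, 0.194, 0.376, 0 and 0.247 in MYC livers. In Ex3 livers it spanned 0.106 to 0.482 RPKM and in MYC+Ex3 livers 0.108 to 0.343. All 20 livers held between 0 and 11 reads of Igf2, so small changes were not detectable at this depth, and the gene did not reach the minimum for testing. With no filter its limma adjusted p was between 0.724 and 1 in the 5 comparisons. Dlk1, Meg3 and Mirg missed it too. Dlk1 was at or below 0.154 RPKM in 19 livers and at 0.714 in MYC liver 5, and Mirg spanned 0.0337 to 0.663. Meg3 spanned 0.0507 to 0.302 RPKM in wild-type livers, 0.228 to 0.538 in Ex3 livers, 0.0487 to 0.236 in MYC livers and 0.131 to 0.507 in MYC+Ex3 livers, and with no filter its limma adjusted p was between 0.0910 and 1 in the 5 comparisons.

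H19 was low in 18 of the 20 short-term livers and high in the other two. It measured 0.284, 1.12, 0.504, 0.157 and 0.262 RPKM in wild-type livers and 0.639, 1.77, 2.15, 1.19 and 0.362 in Ex3 livers. In MYC livers it measured 3.13, 0.504, 1.91, 95.1 and 3.60 RPKM, and in MYC+Ex3 livers 0.640, 0.784, 1.94, 41.8 and 3.33. MYC liver 4 (1130 reads) and MYC+Ex3 liver 4 (558 reads) thus stood far above all others, with no rise of Igf2 in them (0 and 0.232 RPKM). The log2(RPKM + 1) change of H19 against wild type was 2.08 (SE 0.875) in MYC livers and 1.61 in MYC+Ex3 livers. Neither passed limma (adjusted p 0.0955 and 0.191). Without MYC liver 4 the first was 1.08 (limma adjusted p 0.288), and without MYC+Ex3 liver 4 the second was 0.79 (limma adjusted p 0.498). Within keratin-free livers the MYC change was 1.12 (limma adjusted p 0.12), and with the keratin split as a term of the model it was 2.69 and passed (limma adjusted p 0.0188). MYC liver 4 is the 1 keratin-bearing MYC liver, and MYC+Ex3 liver 4 bears keratins too. The call with that term therefore cannot be set apart from the high H19 of those livers.

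Genes with the H19 pattern over the 20 livers were Gipc2 (r = 0.898), Elovl7 (0.884) and Mmp13 (0.879). In MYC liver 4 they measured 7.09, 8.54 and 9.38 RPKM, and in MYC+Ex3 liver 4 they measured 2.81, 2.63 and 6.09. The likeness rests on those livers, which were also high in H19.

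Mean Peg3 levels were lower in livers with MYC, but the differences did not pass the test in the fit reported. Peg3 measured 2.50, 3.59, 6.24, 2.49 and 6.08 RPKM in wild-type livers, 4.39, 4.45, 4.78, 4.89 and 2.58 in Ex3 livers, 2.33, 1.60, 3.34, 1.15 and 3.82 in MYC livers and 1.84, 2.37, 1.20, 2.82 and 2.79 in MYC+Ex3 livers. The groups overlapped, and the direction was opposite to that in the tumours. The log2(RPKM + 1) differences were -0.58 for MYC and -0.65 for MYC+Ex3 against wild type and -0.71 for MYC+Ex3 against Ex3, with limma adjusted p of 0.111, 0.0702 and 0.0524. The last was -0.81 within keratin-free livers and -0.65 within keratin-bearing livers. It passed with the keratin split as a term of the model (-0.71, limma adjusted p 0.0441), and also with sex as a covariate, with rescaling, with only the compared groups and with voom (adjusted p 0.0195 to 0.0488). The authors' deposited table gives Peg3 a log2 fold change of -0.91 and an adjusted p of 0.00600 for MYC+Ex3 against wild type. The 2 arms have other controls, ages and Cre systems, and the difference between them was not tested.

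Rian measured 0.657, 0.500, 0.911, 0.577 and 0.577 RPKM in MYC livers and 1.26, 0.943, 2.10, 1.00 and 1.69 in MYC+Ex3 livers, groups that did not overlap. The difference was 0.53 on the log2(RPKM + 1) scale, with an unadjusted limma p of 0.00411 that did not pass adjustment over all genes (adjusted p 0.632), and within keratin-free livers it was 0.34. In wild-type livers Rian measured 0.596 to 1.21 RPKM and in Ex3 livers 0.872 to 2.23, a difference of 0.44 (limma adjusted p 0.725). Cdkn1c spanned 1.59 to 4.97 RPKM in wild-type, 2.04 to 6.49 in Ex3, 0.980 to 4.57 in MYC and 2.60 to 7.59 in MYC+Ex3 livers. Mest spanned 6.35 to 10.5, 5.58 to 9.83, 4.83 to 18.4 and 4.86 to 7.76 RPKM in the same order, with the 18.4 in MYC liver 5. Plagl1 spanned 0.360 to 2.02 RPKM over the 20 livers. Groups overlapped for these 3 genes in every comparison. For Mest, 3 of 5 MYC+Ex3 livers lay below all wild-type livers. The authors' deposited table gives Mest a log2 fold change of -0.479 and an adjusted p of 0.0411 for MYC+Ex3 against wild type.

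The order of the group means was thus not resolved by limma, in the fit reported, for any of the 6 genes tested 4 days after Cre. In limma 0 of 6 passed for Ex3 against wild type, where 0.132% of all genes passed (0.132% higher and 0% lower), and 0 of 6 for MYC+Ex3 against MYC, where 0.19% passed (0.19% higher and 0% lower). For MYC against wild type 0 of 6 passed where 22.3% of all genes did (16.9% higher and 5.36% lower). For MYC+Ex3 the count was 0 of 6 against wild type, where 24.1% passed (17.9% higher and 6.18% lower), and 0 of 6 against Ex3, where 21.1% passed (16.4% higher and 4.7% lower). At an unadjusted p under 0.05 the counts were 1 for Ex3 against wild type, 2 for MYC and 2 for MYC+Ex3 against wild type, and 1 for MYC+Ex3 against each of MYC and Ex3. By voom on recovered reads 1 was called, Peg3 for MYC+Ex3 against Ex3, and 0 in the other four. The controls are shared between these comparisons. Against wild type, 8 of 8 proliferation markers rose in MYC livers and 8 of 8 in MYC+Ex3 livers.

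Of the other imprinted genes, 42 were tested in these livers. Against wild type 6 rose and 3 fell in MYC livers, 7 rose and 3 fell in MYC+Ex3 livers and 1 rose in Ex3 livers. The shares called were 21.4%, 23.8% and 2.38%, beside 22.3%, 24.1% and 0.132% of all genes, so with MYC they were near the background. Phlda2 rose by 1.74 in MYC livers (limma adjusted p 0.00377) and by 1.44 in MYC+Ex3 livers, as it did in the tumours. Airn, a non-coding RNA that silences Igf2r on the paternal copy and overlaps it, rose by 0.76 in MYC livers, 1.25 in Ex3 livers and 1.67 in MYC+Ex3 livers. The adjusted p from limma were 0.0223, 0.0258 and 1.96e-05, and the call in Ex3 livers was lost under several of the alternatives tried. Igf2r rose by 0.93 in MYC+Ex3 livers (limma adjusted p 0.000515). As for Igf2 and Igf2os, reads of overlapping genes on opposite strands cannot be told apart with certainty. Igf1 fell by 0.87 in MYC livers and by 1.28 in MYC+Ex3 livers on the log2(RPKM + 1) scale (adjusted p 0.00181 and 3.25e-05 by limma). Igf2 was at 11 reads or fewer in every one of these livers. The arms have other controls and Cre systems, and an order of the Igf1 and Igf2 changes in time was not tested.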

How the data were processed

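Total RNA was measured in 33 mouse livers and nodules, grouped by their titles, genotypes and treatments. The deposited values are RPKM per gene and library, set by the authors. The submitters' processing notes name TopHat, TopHat2 2.0.8, SAMtools, featureCounts 1.4.5-p1, DESeq2 and the build mm9, and which step made which value is not given in the sources used here. The authors' deposited table also holds log2 fold changes and adjusted p-values, which are quoted as theirs. No column belonged to another series (0 set aside).

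Each arm was fitted with limma 3.58.1 (R 4.3.3, trended empirical Bayes, two-sided) on log2(RPKM + 1), over genes with an RPKM of at least 1 in at least 3 libraries of the arm. That left 13688 genes in the 20 short-term livers and 11854 genes in the 13 libraries of the tumour arm. Benjamini-Hochberg adjustment ran over all genes tested in each of 8 comparisons, and genes were called at an adjusted p under 0.05. Whole reads were recovered from the deposited RPKM for 100% of the 20485 genes above 0 (within 0.001 reads) and gave the read numbers and, as an alternative, limma-voom. The scripts were tested on simulated data. Replicates are numbered by record order only, which pairs nothing. Sex was read from Xist and Ddx3y.

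All 10 members are named with their values. Genes of other lists are named where called, at most 8 per list and comparison by size of change, or where they neighbour a member, and the 3 genes most like each member by Pearson r were found within each arm. Some of these are left out of the text. The members, the gene lists and the tests were chosen with earlier results of these data known. Positions and sequences come from GRCm38, a later build than that of the values, and locate genes only.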

Additional observations from a re-analysis of the deposited data

Results flagged for a closer look

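In groups of 4 to 10 libraries, 9 of 50 combinations of a gene and a group held a library far from the others by Dixon's criterion. Chance gives about 1 in 20 such groups, and the groups of 3 tumours were not tested.

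H19 held 3 of these libraries. MYC liver 4 measured 95.1 RPKM against 0.504 to 3.60 in the other MYC livers, and MYC+Ex3 liver 4 measured 41.8 RPKM against 0.640 to 3.33. The third was 4-OHT liver 1, with 1.78 RPKM against at most 0.572 in the other 6.

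MYC liver 5 stood out for Mest, with 18.4 RPKM against 4.83 to 8.51 in the other MYC livers, and for Dlk1, with 0.714 RPKM against at most 0.0395. This library also had the highest skeletal muscle markers of the short-term arm, summing to 16.3 RPKM, and both Xist (86.1 RPKM) and Ddx3y (4.74 RPKM), which a single mouse of either sex would not have together. Their part in these values was not tested.

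The remaining values stood alone. Dlk1 was at 0.00664 RPKM (1 read) in 4-OHT liver 1 and at 0 in the other 6, so 1 read was enough for the flag. Cdkn1c measured 1.50 RPKM in 4-OHT liver 2 against 0.508 to 0.915 in the others. Peg3 was low in Ex3 liver 5, at 2.58 RPKM against 4.39 to 4.89. Plagl1 measured 1.90 RPKM in wild-type liver 2 against 0.626 to 0.888.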

How the results depend on the processing

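The rises of Igf2 and H19 in both kinds of tumour kept their direction and their call under all 9 alternatives tried and with each library left out. The number of genes called of the 9 in MYC tumours was 8, and 5 with a filter at an RPKM of 5 and 4 with only the compared groups in the fit, where fewer of them were tested. It was 5 with voom on recovered reads (chosen after seeing the data), where the cause was not tested. In MYC+Ex3 tumours it was 8, and 5 with the filter at 5. Leaving out 1 library gave 5 to 9 in MYC tumours, with 5 without MYC tumour 2 or without MYC tumour 3 (Meg3, Mirg and Cdkn1c were lost) and 9 without MYC tumour 1, and 8 to 8 in MYC+Ex3 tumours. Between the tumours it gave 0 to 1, the 1 being Dlk1 without MYC tumour 2.

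In short-term livers 0 genes were called. The count was 1 for MYC against wild type with a pseudocount of 0.1 and with the keratin split as a term (H19). It was 1 for MYC+Ex3 against wild type with median-ratio rescaling (Peg3). For MYC+Ex3 against Ex3 it was 1 (Peg3) with rescaling, only the compared groups, sex as a covariate, voom and the keratin term. Leaving out 1 library gave 0 to 0 for Ex3 against wild type and for MYC+Ex3 against MYC, and 0 to 1 in the other three. For MYC against wild type the 1 was H19 without MYC liver 2 or without MYC+Ex3 liver 4, and Peg3 without MYC liver 5. For MYC+Ex3 it was Peg3, against wild type without wild-type liver 1 or 4, and against Ex3 without any 1 of 8 livers (limma adjusted p 0.0324 to 0.0493). The cause of these changes was not tested.

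Changes that turned direction were small ones that did not pass limma in the fit reported. For Ex3 against wild type, Mest was -0.0107 with rescaling and -0.12 in keratin-free livers, Cdkn1c -0.50 in keratin-free and Plagl1 -0.0692 in keratin-bearing livers. For MYC against wild type, Mest was 0.0753 with sex, and Plagl1 was 0.00529 with sex and 0.0528 with the keratin term. For MYC+Ex3 against wild type, Plagl1 was 0.0385 with sex and 0.0807 in keratin-bearing livers, and Cdkn1c -0.30 in keratin-free livers. For MYC+Ex3 against MYC, Peg3 was 0.0455 with sex and 0.00119 with the keratin term, Plagl1 0.0332 with sex and Cdkn1c -0.0121 in keratin-free livers. For MYC+Ex3 against Ex3, Cdkn1c was -0.0314 with rescaling and -0.0914 in keratin-bearing livers, H19 -0.32 in keratin-free and Plagl1 0.15 in keratin-bearing livers. In MYC+Ex3 tumours Mest was -0.12 with rescaling, -0.0857 with voom and -0.16 against the 4-OHT livers numbered S14, and between the tumours H19 was -0.0223 with voom.

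Leaving out 1 library gave these ranges. For Ex3 against wild type they were -0.0748 to 0.13 for Mest, -0.0599 to 0.20 for Peg3 and -0.0285 to 0.18 for Plagl1. For MYC against wild type they were -0.28 to 0.15 for Mest and -0.15 to 0.10 for Plagl1, and for MYC+Ex3 against wild type -0.22 to 0.0925 for Plagl1. For MYC+Ex3 against MYC they were -1.29 to 0.53 for H19, -0.23 to 0.0657 for Peg3 and -0.18 to 0.10 for Plagl1, and against Ex3 -0.16 to 0.17 for Cdkn1c, -0.26 to 0.0285 for Plagl1 and -0.15 to 0.0437 for Rian. For Mest in MYC+Ex3 tumours the range was -0.11 to 0.19. Between the tumours it was -0.12 to 0.21 for H19, -0.29 to 0.60 for Meg3, -0.0807 to 0.82 for Mirg and -0.19 to 1.15 for Rian. No paired analysis was possible because the replicate numbers follow the order of the records and the labels tie no samples together.

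Depth limits Igf2, Dlk1, Meg3 and Mirg in the short-term livers, where Igf2 rested on at most 11 reads. No value within keratin-bearing livers was had for comparisons with MYC livers, since only 1 of these livers, MYC liver 4, bears keratins.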
